A study of Arabidopsis thaliana with 7 samples.

Results

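The plastid-encoded RNA polymerase of chloroplasts has a bacterial-type core that is encoded in the plastid genome, and it works together with a set of nuclear-encoded proteins that bind to it when chloroplasts develop in the light. Plants that lack one of these polymerase-associated proteins are typically albino or pale, because photosynthesis genes of the plastid genome are then poorly transcribed. Sigma factors give the same polymerase its promoter choice, and a phage-type polymerase from the nucleus reads other plastid promoters.

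The genes described here are 10 nuclear genes for such proteins, taken by locus identifier from a table of 27655 Arabidopsis thaliana genes. They are PTAC3, PTAC2, PTAC10, PTAC12, PTAC14 and PTAC6 ("plastid transcriptionally active" proteins), FLN1, TRXz, FSD2 and FSD3. All 10 were found, and all 10 passed the filter on low values (at least 1 TPM in at least 3 of the 7 libraries). The genes were taken by their known function and not by a cut on these values, though with earlier results of these data known.

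Total RNA had been sequenced from Col-0 seedlings aged 12 days, from 3 libraries of the wild type (WT) and 4 of the glk1 glk2 double mutant. Both groups had grown on half-strength MS medium under long days at a temperature of 16 °C and were sampled at ZT4, that is 4 h after dawn. GLK1 and GLK2, transcription factors, promote the development of chloroplasts. The comparison asks which transcripts differ when both genes are mutated. The mutant alleles are not named in the labels, and nothing says whether replicates were grown separately. The p-values then reflect only how much these libraries vary, and that variation may be technical.

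Values are TPM, in which reads are scaled by gene length and to a fixed total per library. Read depth cannot be seen from them, so counting intervals are left out. GLK1 had 183 to 203 TPM in WT and 49.7 to 56.0 TPM in the mutant, and GLK2 had 155 to 161 and 46.0 to 54.4 TPM, so both targeted transcripts were reduced in every library labelled as mutant without being absent. Nuclear antenna and photosystem transcripts (48 genes) filled 25.9% ± 0.32 (SD) of TPM in the 3 WT libraries and 9.94% ± 0.72 (SD) in the 4 mutant libraries. With a fixed total, that loss alone leaves all other genes together 0.28 higher in the mutant on the log2 scale. The comparison was therefore made both in TPM and after TMM scaling, which centres the bulk of genes near 0. A gene is said to have risen or fallen only where limma called it both in TPM and after TMM scaling, with the same sign (Benjamini-Hochberg adjusted p under 0.05 over 19127 genes). Seedlings hold several organs, and in bulk RNA fewer cells of a type and less RNA per cell cannot be told apart.

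The regions upstream of the 10 genes were read from the RefSeq genome TAIR10.1, the 250 bases before each annotated gene start. In 7 of the 10 this window ran into a neighbouring annotated gene, against 28.4% of the windows of all 27443 nuclear protein-coding genes. The windows were searched on both strands for CCAATC and AGATTCT, which resemble sequences reported for GLK binding, and the G-box CACGTG. No motif contains another. CCAATC occurred in 0 of the 10 windows (10.2% of all windows), AGATTCT in 0 of 10 (6.22%) and CACGTG in 2 of 10 (6.49%), those of PTAC2 and PTAC3. These are matches of letters, not shown binding sites. The windows with a match are printed 5′ to 3′ toward the gene start, with the matched motif in capitals, the PTAC3 window only as far as it lies outside other genes. The window of PTAC16, a nucleoid gene outside the 10 that fell, is shown beside them because it held AGATTCT. The windows of the other genes below that fell (SIG1 and PTAC5) or rose (PTAC9) were searched too and held none of the motifs.
PTAC2, chr1:28122578-28122827, minus strand: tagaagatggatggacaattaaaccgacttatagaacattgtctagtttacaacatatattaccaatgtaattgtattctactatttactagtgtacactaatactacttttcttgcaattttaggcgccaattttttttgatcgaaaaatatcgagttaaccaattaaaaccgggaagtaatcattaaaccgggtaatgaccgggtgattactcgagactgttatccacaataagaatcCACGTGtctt
PTAC3, chr3:1127582-1127680, minus strand: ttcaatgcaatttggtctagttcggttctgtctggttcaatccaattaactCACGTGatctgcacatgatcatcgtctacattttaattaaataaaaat
PTAC16, chr3:17228392-17228641, plus strand: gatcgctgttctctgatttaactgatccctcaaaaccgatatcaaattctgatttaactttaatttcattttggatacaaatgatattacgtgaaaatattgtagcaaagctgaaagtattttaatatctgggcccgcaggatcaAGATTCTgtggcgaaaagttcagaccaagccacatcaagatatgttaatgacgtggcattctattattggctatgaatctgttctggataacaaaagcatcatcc
The CACGTG match began 10 bases before the gene start in PTAC2 and 48 bases before it in PTAC3. The AGATTCT match of PTAC16 began 105 bases before its gene start.

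All 10 genes were expressed at modest levels. In WT their mean levels ran from 9.12 TPM for FLN1 to 29.2 TPM for PTAC6, which placed them between the 42.4 and the 75.5 percentile of all genes tested. Together they made up 174 ± 25.1 TPM (SD, n = 3) in WT and 234 ± 15.9 TPM (SD, n = 4) in the mutant. After TMM scaling the sums were 201 ± 30.9 and 210 ± 16.7. In TPM, limma called 9 of the 10 higher in the mutant and 0 lower, against 63.0% of all genes higher and 2.56% lower. After TMM scaling limma called 0 of the 10 in either direction, against 3.20% and 4.96% of all genes, and 1 of the 10 (PTAC10, higher) had an unadjusted p under 0.05, against 12.2% of all genes in the higher and 12.3% in the lower direction. So none of the 10 rose or fell by the rule used here. In TPM all mutant libraries lay above all WT libraries for 8 of the 10 (62.8% of all genes) and below them for 0 (2.54%). After TMM scaling these counts were 0 and 0 (12.1% and 11.7% of all genes). The median log2 fold change of the 10 was 0.46 in TPM and 0.12 after TMM scaling, where all genes tested had medians of 0.33 and 0.011. The count of 9 rested in part on WT replicate 1: without that library limma called 4 of the 10 higher in TPM (PTAC3, PTAC10, PTAC12 and PTAC14), against 54.5% of all genes, and 0 after TMM scaling, against 1.03%. The median of the 10 was then 0.32 in TPM and -0.020 after TMM scaling. Other ways of scaling gave counts of called genes near the TMM ones. With quantile normalization 0 of the 10 were called higher, against 3.98% of all genes. With the antenna and photosystem genes taken out before rescaling it was 0, against 7.64%. At an unadjusted p under 0.05, 1 and 3 of the 10 were higher in these fits. The share of all genes at that threshold is not given for these fits, so these counts cannot be set beside it. With limma array weights, which give less weight to deviant libraries, 9 were called higher in TPM (73.2% of all genes) and 3 after TMM scaling (14.1%), namely PTAC3, PTAC10 and PTAC14.

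**Figure D1:**
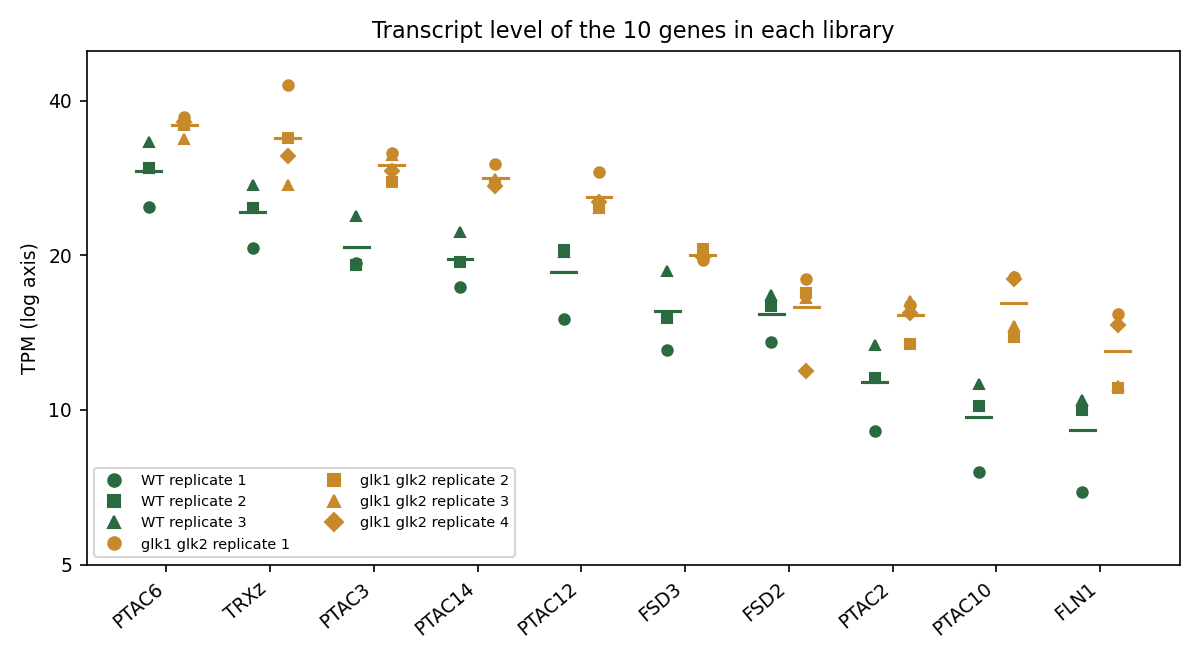
Transcript level in TPM (log axis) of each of the 10 genes, ordered by WT mean, with 1 point per library, a shape per replicate number and a bar at the group mean. The mutant points lie above all WT points for 8 genes, while TRXz and FSD2 overlap, and WT replicate 1 is the lowest WT point for 9 genes.

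The large proteins that sit on plastid DNA and RNA come first. PTAC3 (AT3G04260, chr3:1122948-1127581, minus strand), a DNA-binding protein, had 19.3, 19.2 and 23.8 TPM in WT replicates 1 to 3 and 31.6, 27.8, 31.3 and 29.2 TPM in mutant replicates 1 to 4. PTAC2 (AT1G74850, chr1:28118664-28122577, minus strand), a pentatricopeptide-repeat protein, had 9.12, 11.5 and 13.4 TPM in WT and 16.0, 13.4, 16.3 and 15.4 TPM in the mutant. For both genes every mutant library lay above every WT library, by a wide gap for PTAC3 and by a narrow one for PTAC2 (13.38 against 13.43 TPM). The log2 fold change of PTAC3 was 0.51 ± 0.09 (SE, limma adjusted p = 0.0016) in TPM and 0.17 ± 0.09 (adjusted p = 0.297) after TMM scaling. For PTAC2 it was 0.41 ± 0.12 (adjusted p = 0.0163) in TPM and 0.075 ± 0.12 (adjusted p = 0.738) after TMM scaling.

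PTAC10 (AT3G48500, chr3:17962080-17965723, plus strand), which carries an RNA-binding domain, had the largest fold change of the 10. It had 7.58, 10.2 and 11.3 TPM in WT and 18.1, 13.9, 14.6 and 18.0 TPM in the mutant. Its groups were apart in TPM, with mutant replicates 1 and 4 highest. The log2 fold change was 0.69 ± 0.14 (SE, limma adjusted p = 0.0032) in TPM and 0.36 ± 0.14 (adjusted p = 0.167) after TMM scaling, with a 95% confidence interval of 0.033 to 0.68. After TMM scaling WT replicate 3, at 13.2, lay above mutant replicates 2 and 3, at 13.1 and 12.5. Without WT replicate 1 its TMM-scaled fold change was 0.20.

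PTAC12 (AT2G34640, chr2:14581835-14584797, minus strand), also called HEMERA, acts both in the plastid and in the nucleus, where it takes part in phytochrome signalling. It had 15.0, 20.5 and 20.3 TPM in WT and 29.1, 24.9, 24.7 and 25.4 TPM in the mutant. WT replicate 1 was low and mutant replicate 1 high, and the groups did not overlap. PTAC14 (AT4G20130, chr4:10878817-10882052, plus strand), a SET-domain protein, had 17.3, 19.4 and 22.2 TPM in WT and 30.1, 27.6, 28.1 and 27.3 TPM in the mutant, again with no overlap. PTAC6 (AT1G21600, chr1:7570845-7573847, minus strand), which is needed for full activity of the polymerase, had 24.8, 29.5 and 33.2 TPM in WT and 37.2, 35.9, 33.7 and 36.4 TPM in the mutant, where the highest WT and the lowest mutant library nearly met. In TPM the log2 fold changes were 0.47 ± 0.11 for PTAC12, 0.51 ± 0.09 for PTAC14 and 0.29 ± 0.09 for PTAC6 (SE, limma adjusted p = 0.0061, 0.0014 and 0.0220). After TMM scaling they were 0.13, 0.16 and -0.057 (limma adjusted p = 0.546, 0.319 and 0.772), and the groups of all 3 genes overlapped.

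FLN1 (AT3G54090, chr3:20028052-20030055, plus strand) and TRXz (AT3G06730, chr3:2124155-2126156, plus strand) encode a fructokinase-like protein and a plastid thioredoxin that bind each other. FLN1 had 6.93, 9.98 and 10.5 TPM in WT and 15.4, 11.01, 11.1 and 14.6 TPM in the mutant, with replicates 1 and 4 highest in the mutant. TRXz had 20.6, 24.7 and 27.4 TPM in WT and 42.9, 33.9, 27.4 and 31.2 TPM in the mutant. WT replicate 3 (27.42 TPM) lay just above mutant replicate 3 (27.38 TPM), so the TRXz groups overlapped even in TPM. The log2 fold changes in TPM were 0.47 ± 0.16 for FLN1 and 0.45 ± 0.15 for TRXz (SE, limma adjusted p = 0.0279 and 0.0234). After TMM scaling they were 0.14 and 0.11 (limma adjusted p = 0.633 and 0.728). Without WT replicate 1 neither was called in TPM, where the fold changes were 0.31 for FLN1 and 0.35 for TRXz (limma adjusted p = 0.104 and 0.0897), beside a median of 0.34 for all genes in the same fit. The TMM-scaled values were then -0.027 and -0.0046. PTAC10, FLN1 and TRXz lie in rows where WT replicate 1 was deposited in another order than the other libraries. With that library treated as missing there, the fold change of PTAC10 in TPM was 0.54 and remained called, while those of FLN1 and TRXz were not called.

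FSD3 (AT5G23310, chr5:7850444-7852534, plus strand) and FSD2 (AT5G51100, chr5:20773235-20775739, minus strand) are plastid iron superoxide dismutases, which detoxify superoxide and are known to act as a heteromer at the nucleoid. FSD3 had 13.1, 15.1 and 18.7 TPM in WT and 19.6, 20.5, 20.2 and 19.8 TPM in the mutant. The 4 mutant libraries lay close together and above all WT libraries. FSD2 had 13.6, 15.9 and 16.7 TPM in WT and 18.0, 16.9, 16.6 and 11.9 TPM in the mutant, so its groups overlapped and mutant replicate 4 was the lowest of all 7 libraries. The log2 fold change of FSD3 was 0.35 ± 0.10 (SE, limma adjusted p = 0.0160) in TPM and 0.012 ± 0.11 (adjusted p = 0.961) after TMM scaling. FSD2 was the gene of the 10 that limma did not call in TPM, at 0.027 ± 0.14 (SE, adjusted p = 0.865). After TMM scaling it stood at -0.31 ± 0.14 (SE, limma adjusted p = 0.220), with a 95% confidence interval of -0.64 to 0.012. Its TMM-scaled fold change lay at the 8.32 percentile of all genes tested, while the other 9 lay between the 35.4 and the 95.2 percentile.

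**Figure D2:**
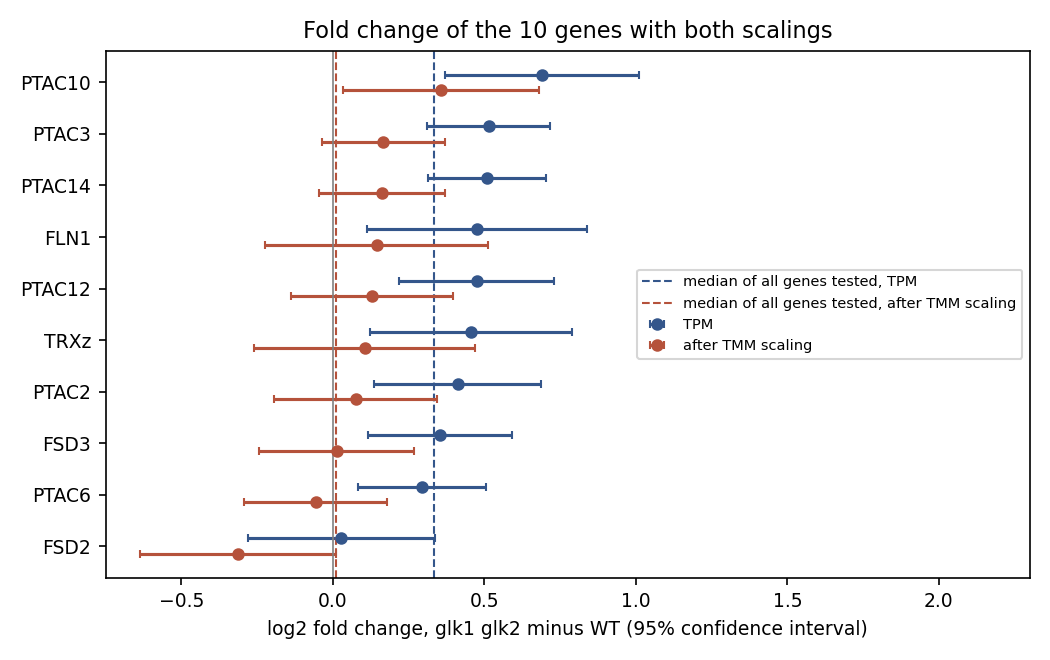
Difference between glk1 glk2 and WT in mean log2(TPM + 1) for each of the 10 genes in TPM and after TMM scaling, with 95% confidence intervals from limma and dashed lines at the medians of all genes tested. In TPM the intervals of 9 genes lie above 0, and after TMM scaling those of 9 genes include 0, with PTAC10 above it before adjustment.

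In TPM most of the 10 genes deviated in the same direction in 3 of the 7 libraries. There 0 of the 10 lay above their group mean in WT replicate 1, 10 in WT replicate 3 and 9 in mutant replicate 1. In each of mutant replicates 2, 3 and 4 it was 4 of the 10. After TMM scaling it was 3 of the 10 in mutant replicate 3, where the median deviation of the 10 was -0.095 on the log2 scale, against -0.0049 for all genes. Of the 3 WT libraries, replicate 1 was the lowest for 9 of the 10 genes in TPM, against 37.7% of all genes tested, and replicate 3 was the highest for 9, against 32.9%. PTAC3 and PTAC12 were the exceptions, PTAC3 lowest in WT replicate 2 and PTAC12 highest in it. After TMM scaling WT replicate 3 was the highest for all 10, against 41.1% of all genes. WT replicate 1 lay below the mean of the other WT libraries by 0.34 on the TMM-scaled log2 scale as the median of the 10, with values from -0.51 for FLN1 to -0.15 for PTAC3, where the median of all genes was -0.011. Among the mutant libraries replicate 1 was the highest for 8 of the 10 genes in TPM, against 15.3% of all genes. The median spread within groups was 0.18 for the 10 genes and 0.12 for all genes (pooled SD of TMM-scaled log2 values). These shares are descriptions, since genes of one library are not independent.

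The summed levels show the same pattern, with 147, 176 and 197 TPM in WT replicates 1 to 3 and 258, 226, 224 and 229 TPM in mutant replicates 1 to 4. After TMM scaling the sums were 170, 201 and 231 in WT and 232, 213, 193 and 204 in the mutant. The mutant libraries then lay within or just above the range that the WT libraries span among themselves. The summed level of 3 leaf mesophyll markers (RBCS1A, CA1 and RCA) was 29237, 30228 and 32255 TPM in WT replicates 1 to 3 and 30620 to 34414 TPM in the mutant. Among the WT libraries it was thus also lowest in replicate 1 and highest in replicate 3, although RCA alone was lowest in replicate 2. The sums of 4 epidermal and guard cell markers (408, 419 and 448 TPM) and of 3 dividing cell markers (31.9, 32.6 and 34.9 TPM) had the same order in WT. Among the epidermal and guard cell markers only PDF1, the most abundant, had this order itself, and ATML1, FAMA and KAT1 did not. Among the dividing cell markers only KN, the most abundant, did, and CYCB1-1 and MAD2 did not. In the mutant, replicate 1 was the highest for most of the 10 genes. The mesophyll sum was 34404, 34414, 30620 and 34158 TPM in mutant replicates 1 to 4, so replicates 1 and 2 were nearly equal. The epidermal and guard cell sum and the dividing cell sum were highest in mutant replicate 3. The summed level of 6 root markers (PYK10, BGLU21, BGLU22, LRX1, EXPA7 and COBL9) was 2368, 2562 and 1963 TPM in WT. In mutant replicates 1 to 4 it was 2882, 2151, 2192 and 3559 TPM. FSD2 was lowest in mutant replicate 4, where the root sum was highest. FSD2 was highest in mutant replicate 1, where the root sum was the next highest. In TPM, where 63.0% of all genes were called higher, limma called 2 of the 6 root markers higher (LRX1 and COBL9) and 0 of the 3 mesophyll markers. After TMM scaling it called 0 of the root markers. At an unadjusted p under 0.05, 1 of them was higher, against 12.2% of all genes. Of the 3 mesophyll markers limma then called CA1 lower (adjusted p = 0.0391), against 4.96% of all genes. The CA1 call did not hold without any single WT library or without mutant replicate 1 or 2 (limma adjusted p = 0.0578 to 0.141). The part of these tissue markers in the values of the 10 genes was not tested. The sums of 3 vascular, 4 epidermal and guard cell and 3 dividing cell markers overlapped between the groups. In TPM, limma called 1, 3 and 0 of them higher, again beside 63.0% of all genes. After TMM scaling it called 0 of these 10 markers. At an unadjusted p under 0.05, 2 were lower and 0 higher, against 12.3% and 12.2% of all genes. All 6 root, 3 mesophyll and these 10 markers passed the filter, and 3 flower markers together had at most 0.37 TPM in any library.

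**Figure D3:**
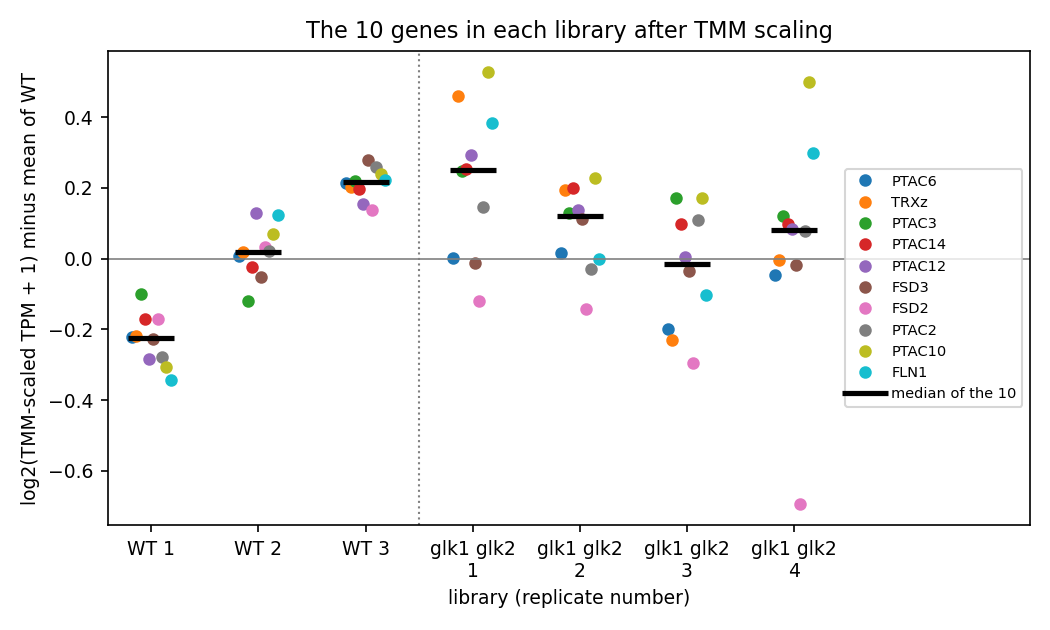
TMM-scaled log2(TPM + 1) of each of the 10 genes in each of the 7 libraries, relative to the gene's WT mean, with a black bar at the median of the 10. In WT the points of replicate 1 are all below 0 and those of replicate 3 all above it, and in the mutant FSD2 in replicate 4 is the lowest point.

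Ratios between genes of one library barely depend on the scaling, and 3 of them (log2 scale, pseudocount of 1) were compared by an exact two-sided permutation test over the 35 divisions of the libraries, which can give no p below 0.0286. The FSD2 to FSD3 ratio was 1.04, 1.06 and 0.896 in WT replicates 1 to 3 and 0.917, 0.824, 0.819 and 0.600 in mutant replicates 1 to 4. WT replicate 3 lay below mutant replicate 1, so the groups overlapped. The mean log2 ratio differed by -0.33 (mutant minus WT, exact permutation p = 0.0857, adjusted over the 3 ratios 0.129), and by -0.21 without mutant replicate 4. The FLN1 to TRXz ratio was 0.336 to 0.404 in WT and 0.325 to 0.468 in the mutant, a log2 difference of 0.020 (exact permutation p = 0.886, adjusted 0.886). The FLN1 to FLN2 ratio, set against the paralog of FLN1, was 0.952, 1.16 and 1.02 in WT and 0.883, 0.939, 0.748 and 0.907 in the mutant. Every mutant library lay below every WT library, with a log2 difference of -0.25 (exact permutation p = 0.0571, adjusted 0.129). With 35 divisions and adjustment over 3 ratios, 1 ratio alone could not reach an adjusted p under 0.05. The adjusted values therefore cannot decide whether a single ratio differed.

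**Figure D4:**
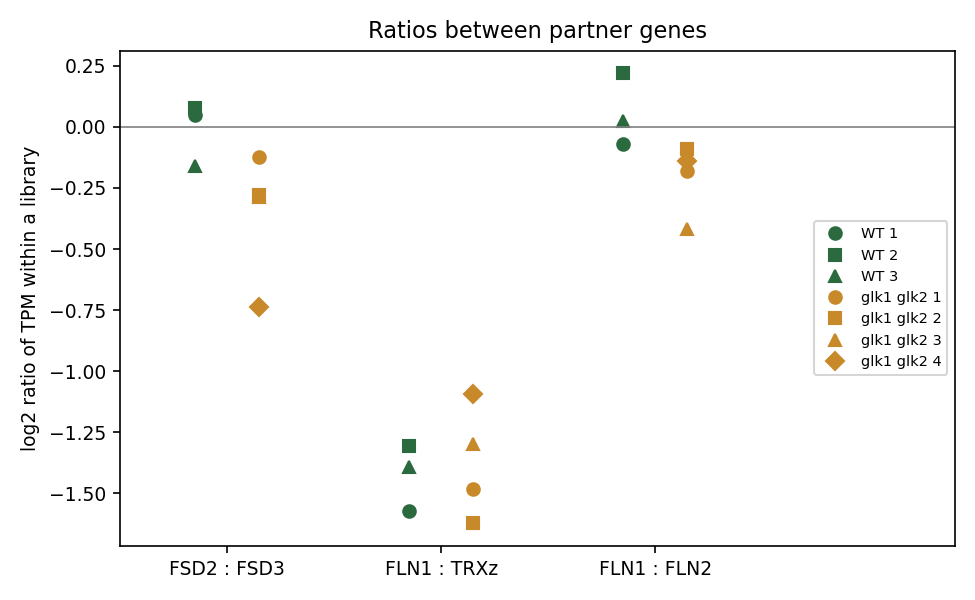
Log2 ratio of TPM between partner genes within each library, without the pseudocount of 1 used in the test, with WT and mutant libraries side by side and a shape per replicate number. The FSD2 to FSD3 ratios overlap between the groups, the FLN1 to TRXz ratios of WT lie inside the mutant range, and the FLN1 to FLN2 ratios are lower in all 4 mutant libraries.

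FSD1, the iron superoxide dismutase that is not part of the polymerase complex, had 1194 to 1384 TPM in WT and 2032 to 2200 TPM in the mutant, far above FSD2 and FSD3. Its log2 fold change was 0.69 in TPM (limma adjusted p = 3.77e-04) and 0.32 after TMM scaling (adjusted p = 0.0879). FLN2 had 7.28 to 10.3 TPM in WT and 11.7 to 17.4 TPM in the mutant. The reads of the 10 genes were little exposed to sharing: for 9 of them every stretch of 50 bases of the longest annotated transcript occurred in no other annotated gene, and for FSD2 97.3% did. PTAC12, PTAC6 and TRXz overlap a neighbouring protein-coding gene by 22, 18 and 12 bases, on the opposite strand for PTAC12 and PTAC6. Reads there cannot be assigned to 1 gene with certainty. For PTAC12 and PTAC6 this is because the strand setting is unknown, and for TRXz because the neighbour lies on the same strand.

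The other nuclear genes for plastid transcription were compared by 4 lists with 25 genes, all tested. Of 7 further associated proteins and assembly factors 0 rose and 0 fell, where limma called 5 higher in TPM, against 63.0% of all genes. After TMM scaling it called 0, with FLN2 higher and PTAC7 lower at an unadjusted p under 0.05 (12.2% and 12.3% of all genes). FLN2 (log2 fold change 0.72 in TPM, 0.39 after TMM scaling) and PRIN2 (0.56 and 0.22), which is needed for polymerase activity, were farthest from 0 in TPM. PTAC7, a further subunit, was at 90.4 ± 3.26 TPM (SD, n = 3) in WT higher than any of the 10, with 92.7 ± 7.17 TPM (SD, n = 4) in the mutant. Its log2 fold change was 0.032 in TPM (limma adjusted p = 0.697) and -0.33 after TMM scaling (adjusted p = 0.0645). Of 6 sigma factors SIG1 fell and 0 rose. SIG1 had 95.5, 102 and 103 TPM in WT and 81.6, 85.6, 75.8 and 92.3 TPM in the mutant, a log2 fold change of -0.26 (limma adjusted p = 0.0141) in TPM and -0.61 (adjusted p = 0.0030) after TMM scaling. SIG2 (0.43 in TPM and 0.072 after TMM scaling) and SIG3 (0.37 and 0.018) were called in TPM only, as was SIG6. Of 3 phage-type polymerases 0 rose and 0 fell, though limma called all 3 higher in TPM (63.0% of all genes). After TMM scaling it called 0, and all 3 were higher at an unadjusted p under 0.05 (12.2% of all genes). Their log2 fold changes after TMM scaling were 0.38 for SCA3, the plastid enzyme, 0.37 for the mitochondrial MGP3 and 0.34 for AT5G15700, which is placed in both organelles.

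Of 9 other nucleoid proteins PTAC16 and PTAC5 fell and PTAC9 rose. PTAC16 had 799, 851 and 960 TPM in WT and 278, 292, 270 and 273 TPM in the mutant, and differed by -1.64 ± 0.07 on the log2 scale (SE, limma adjusted p = 4.67e-06) in TPM and by -1.999 ± 0.09 (adjusted p = 5.54e-06) after TMM scaling. PTAC9, an organellar single-stranded DNA-binding protein, had 19.9, 21.7 and 21.9 TPM in WT and 37.6, 37.5, 38.4 and 35.4 TPM in the mutant, with a log2 fold change of 0.79 in TPM (limma adjusted p = 9.69e-05) and 0.44 after TMM scaling (adjusted p = 0.0043). PTAC5 had 42.7 to 48.3 TPM in WT and 38.6 to 40.3 TPM in the mutant, with log2 fold changes of -0.18 (limma adjusted p = 0.0291) and -0.53 (adjusted p = 0.0021). Over the 4 lists 1 of 25 genes rose and 3 fell, where 3.20% and 2.53% of all genes did. The medians of the 25 were 0.37 in TPM and 0.050 after TMM scaling, against 0.46 and 0.12 for the 10 associated proteins.

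**Figure D5:**
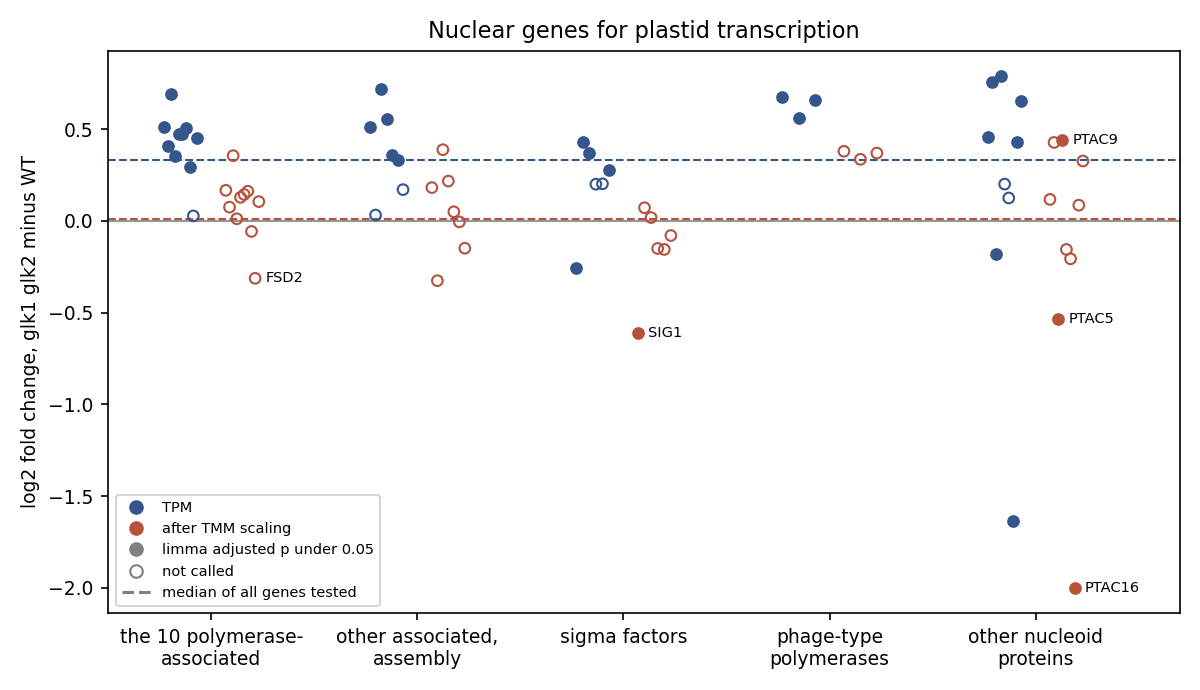
Log2 fold change (glk1 glk2 minus WT) of the 10 polymerase-associated genes and of the 4 lists of other nuclear genes for plastid transcription, 1 point per gene and scaling, filled where limma's adjusted p was under 0.05, with dashed lines at the medians of all genes tested. PTAC16 lies lowest at -1.999 after TMM scaling, and FSD2 is the lowest of the 10 at -0.31.

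The genes whose TMM-scaled levels followed the mean of the 10 most closely over the 7 libraries, among 14681 other genes with a mean of at least 5 TPM, were EMB1586 (Pearson r = 0.984), AT4G39040 (0.981), AT2G04360 (0.977), AT2G35410 (0.973) and PDE149 (0.970). With 7 libraries in 2 groups such values are descriptions, and 62 of these genes reached an r of at least 0.9. The TMM-scaled mean of the 10 (log2 scale) was 4.07, 4.32 and 4.51 in WT replicates 1 to 3. In mutant replicates 1 to 4 it was 4.52, 4.38, 4.27 and 4.34. Mean levels in WT and mutant were 22.2 and 30.5 TPM for EMB1586 and 35.4 and 48.0 TPM for PDE149. These 2 pairs are without TMM scaling, where 63.0% of all genes were called higher in the mutant.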

How the data were processed

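The authors deposited TPM values, a single table for all 7 libraries. Per the submitters' processing notes, TopHat2 and Cufflinks were used with build TAIR10 (no versions given). Annotation, strand setting and filters are not given there. The gene identifiers depart from alphabetical order in 5606 rows. Over these genes the correlation of WT replicate 1 with the average of all others (log2(TPM + 1)) was r = 0.055 as deposited and 0.995 with its values assigned in alphabetical order, and it was read in that order. This touches 3 of the 10 genes.

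Genes with at least 1 TPM in at least 3 of 7 libraries (19127) were compared as log2(TPM + 1), a scale that understates changes of low genes, with limma 3.58.1 under R 4.3.3 (variances moderated along a trend with the mean level, two-sided p-values, Benjamini-Hochberg adjustment). The same was done after division by factors from a trimmed mean of M values (TMM: 30% trim of log ratios, 5% of mean levels, unweighted). The fits were tested on simulated data with 200 genes changed. That simulation held no loss of antenna transcripts and no shift common to most genes, so it does not cover that feature of these libraries. The members and lists were chosen with earlier results of these data known. Named genes are the 10, GLK1 and GLK2, the genes of each list called with both scalings, the 2 with the largest change in TPM per list, the paralogs FSD1 and FLN2, and 5 genes of like pattern. PTAC7, the phage-type gene AT5G15700 and the upstream window of PTAC16 were added after their values were seen. Genes of the chloroplast genome are not used here, since the reference pairs no names with their identifiers. Sequences and gene positions are from RefSeq TAIR10.1. Of the identifiers, 27445 matched its locus tags.

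Alternatives changed the pseudocount (0.1 and 5), filter, scaling, variance model, order of WT replicate 1 and libraries used, and added a replicate block.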

Additional observations from a re-analysis of the deposited data

Results flagged for a closer look

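In 2 of 31 sets of 4 mutant values examined, 1 library stood apart from the others by Dixon's test. Chance flags about 1 in 20, so this count is near that rate. For PTAC12 mutant replicate 1, at 29.1 TPM against 24.7 to 25.4 TPM, was separated by 0.856 of the whole range. For the summed level of the 10 genes mutant replicate 1, at 258 TPM against 224 to 229 TPM, was separated by 0.848 of it. The 2 flags are not separate, since they concern the same library and PTAC12 is part of the sum.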

How the results depend on the processing

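The number of the 10 genes called higher in TPM was 9, against 63.0% of all genes. With quantile normalization and with the antenna and photosystem genes removed before rescaling, most of the shift common to most genes was taken out. The median of all genes was then 0.021 and 0.085, against 0.33 in TPM. The number called higher was 0 with each (3.98% and 7.64% of all genes). It was 4 to 9 with single libraries left out, 6 with WT replicate 1 as deposited and 7 with that library missing in the affected rows. With the replicate block, which was fitted without mutant replicate 4, it was 7 (8 without block in those libraries). The 4 came without WT replicate 1, where 54.5% of all genes were called higher. For the other fits named here the share of all genes is not given, so their counts cannot be set beside it. Replicate numbers alone gave no clear sign of pairing. Deviations from the group means correlated at r = -0.096, 0.171 and 0.155 for equal numbers 1 to 3, and from -0.239 to 0.275 for unequal numbers. WT replicates 2 and 3 each correlated most with the mutant library of their own number, and WT replicate 1 did not. After TMM scaling 0 were called under each alternative, the replicate block included, except array weights, with 3 (PTAC3, PTAC10 and PTAC14). With those weights 14.1% of all genes were called higher. None of the 10 was called lower under any alternative. Over the 4 lists with 25 genes, the count higher in TPM was 16, against 63.0% of all genes. It was 1 with quantile normalization (3.98% of all genes) and 1 without antenna and photosystem genes (7.64%). The count lower in TPM was 3, against 2.56% of all genes, and 1 to 3 with single libraries left out. With quantile normalization it was 4, as PTAC7 was then called lower too (limma adjusted p = 0.0466). After TMM scaling the counts were 1 higher and 3 lower, against 3.20% and 4.96% of all genes. Under array weights they were 9 higher, against 14.1% of all genes, and 5 lower. With single libraries left out 1 to 3 were higher. Shares of all genes for the remaining list counts are not given here.

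Signs that turned belonged mostly to values near 0. With quantile normalization PTAC6 (-0.051), FSD2 (-0.32) and PTAC7 (-0.31) turned negative, and without antenna and photosystem genes FSD2 (-0.24) and PTAC7 (-0.25) did. With single libraries left out FSD2 ran from -0.055 to 0.15 and PTAC7 from -0.0070 to 0.081 in TPM. After TMM scaling PTAC2 ran from -0.065 to 0.20, FSD3 from -0.10 to 0.15, PTAC12 from -0.013 to 0.21, FLN1 from -0.027 to 0.26, TRXz from -0.013 to 0.22, SIG3 from -0.018 to 0.066 and PTAC6 from -0.17 to 0.049. With WT replicate 1 missing in the affected rows, FLN1 (-0.030), TRXz (-0.0077) and SIG3 (-0.021) turned after TMM scaling. With that library as deposited PTAC16 stood at 0.086 in TPM and the FLN1 to TRXz log2 ratio at -0.66, since values of other genes then stand in these rows. That ratio ran from -0.068 to 0.097 with single libraries left out. The call of SIG1 in TPM did not hold without WT replicate 2 (adjusted p by limma 0.0542), and that of PTAC5 with the replicate block (0.0919) and without WT replicates 2 or 3 or mutant replicates 1 or 4 (up to 0.121). The call of CA1 after TMM scaling was also lost without the filter (0.0855), with WT replicate 1 as deposited (0.0946) and with the replicate block (0.146). Depth is unknown for these TPM values.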
